A study of Mus musculus with 8 samples.

Results

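The 9 integrin chains described here form the receptors through which cells hold on to collagens and laminins. They were taken by gene symbol from the count table, so that 9 of 23284 listed symbols were members: the collagen-binding alpha chains Itga1, Itga2, Itga10 and Itga11, the laminin-binding alpha chains Itga3, Itga6 and Itga7, the beta chain Itgb1 that all of these alpha chains share, and Itgb4, the alternative partner of Itga6. RNA was sequenced from ID8 IP2 cells, a mouse ovarian cancer line derived from ovarian surface epithelium and passaged through mice, which also carried a luciferase and mCherry vector in both groups. The Notch3IC group (4 libraries) had been infected with a lentivirus for an HA-tagged mouse Notch3 intracellular domain (codons 1664 to 2318) followed by an internal ribosome entry site and GFP, and the Control group (4 libraries) with the empty vector, so that the groups differ in the ribosome entry site and GFP as well as in Notch3. Each of Sets 1 to 4 was a separate infection that gave 1 Control and 1 Notch3IC line. The study reports from later testing that its ID8 IP2 lines probably carried mycoplasma throughout, a condition that both groups share. Assigned counts per library ran from 19013578 to 28208072 in Control and from 15524262 to 27107061 in Notch3IC, with the lowest total of each group in Set 2.

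An integrin is a pair of 1 alpha and 1 beta chain that spans the plasma membrane, and the alpha chain decides most of what the pair can bind. The collagen-binding alpha chains carry an inserted I domain that grips the collagen triple helix, whereas the laminin-binding alpha chains have no such domain and recognise basement membrane laminins. On the inner side the tail of the beta chain recruits talins and kindlins, which switch the receptor on and tie it to actin. Epithelial cells that line the ovary rest on a basement membrane, and ovarian tumor cells that spread through the peritoneal cavity meet collagen-rich tissue below the mesothelium.

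Transcripts of 3 of the 9 chains were higher in Notch3IC cells (Itga1, Itga11 and Itga7), 1 was lower (Itga3), and Itgb1, the common partner, was abundant in both groups with a difference that did not pass the test. Itga1 rose from 34.4 ± 13.2 to 494 ± 330 normalized counts, Itga11 from 174 ± 161 to 1913 ± 766 and Itga7 from 59.9 ± 42.9 to 469 ± 297, whereas Itga3 fell from 4311 ± 934 to 1812 ± 700 (mean ± SD, n = 4 libraries a group). Normalized counts here are counts scaled to a library of 23336153 effective reads, and a gene was called when its Benjamini-Hochberg adjusted p from edgeR's quasi-likelihood test was under 0.1 and its log2 fold change reached 1 in either direction. Of 12430 genes tested, 3.4% were called higher and 0.74% lower, and the median log2 fold change over all of them was -0.01. Among the members 8 of 9 passed the filter on low counts, of which 5 had positive and 3 negative log2 fold changes, with a median of 0.69. Itga2 was the member that did not pass.

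The windows just upstream of the transcript starts of Itga1, Itga11 and Itga3 are shown because these are the 3 members whose Control and Notch3IC libraries did not overlap. Notch intracellular domains act on genes through the DNA-binding protein Rbpj, whose core site is read as TGGGAA, and Hey-type repressors, themselves Notch targets, bind E-boxes such as CACGTG. RefSeq start sites (GRCm38.p6) were matched for 6 of the 9 members, that is all but Itga6, Itga7 and Itgb4, and both strands were searched over 250 bases before each start. Capitals mark GC boxes (GGGCGG on either strand), the motif bound by Sp1. The windows are Itga1 at chr13:115101965-115102214 (minus strand), Itga11 at chr9:62677605-62677854 (plus strand) and Itga3 at chr11:95076715-95076964 (minus strand), each printed 5′ to 3′ toward the start of transcription:
Itga1: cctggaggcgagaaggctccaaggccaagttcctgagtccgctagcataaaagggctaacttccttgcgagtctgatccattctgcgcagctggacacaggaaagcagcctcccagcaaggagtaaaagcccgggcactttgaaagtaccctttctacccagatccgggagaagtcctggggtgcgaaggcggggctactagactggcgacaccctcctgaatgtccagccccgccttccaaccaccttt
Itga11: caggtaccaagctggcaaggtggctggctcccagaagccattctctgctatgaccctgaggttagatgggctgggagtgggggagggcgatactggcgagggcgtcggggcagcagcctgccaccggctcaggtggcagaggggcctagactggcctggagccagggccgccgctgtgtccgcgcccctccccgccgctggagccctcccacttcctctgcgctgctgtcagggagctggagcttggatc
Itga3: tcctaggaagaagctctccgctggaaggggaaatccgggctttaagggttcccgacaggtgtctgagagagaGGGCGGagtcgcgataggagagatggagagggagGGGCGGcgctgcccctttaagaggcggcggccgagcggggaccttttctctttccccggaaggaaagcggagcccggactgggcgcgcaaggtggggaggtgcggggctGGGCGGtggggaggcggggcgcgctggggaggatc
Neither TGGGAA nor CACGTG was found in the windows of the 6 members with an entry. Across 32851 RefSeq windows of the same length 21.6% held TGGGAA, 6.02% held CACGTG and 32.7% held a GC box. The Itga3 window, that of the more upstream of 2 annotated starts, held 3 GC boxes, and those of Itga1 and Itga11 held none. Binding at these windows was not analysed here, and an absent match says only that these letters are missing there.

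The labels were checked first through the Notch3 gene, whose intracellular part is encoded by the insert. Over Sets 1 to 4 in turn, Notch3 had 39, 34, 74 and 53 counts in Control and 3864, 319, 10026 and 6915 in Notch3IC. Every Notch3IC library lay above every Control library, but the Set 2 Notch3IC library was far below the other Notch3IC libraries. The summed normalized counts of Notch3 and its targets Hey1, Heyl and Nrarp were 14389, 1341, 32732 and 21795 in Notch3IC, against 70.4 to 163 in Control, and all 4 genes were called higher. For Nrarp 79.4% of exon bases overlap Gm38287 on the opposite strand. Set 1 stood apart in another way, since both of its libraries had more Itgb1 than those of any other set. The fitted changes of the called members and of Itgb1 are therefore also given without each of these sets. The samples of a group were separate infections of the same line, so p-values measure the spread between infections of 1 cell line.

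**Figure D1:**
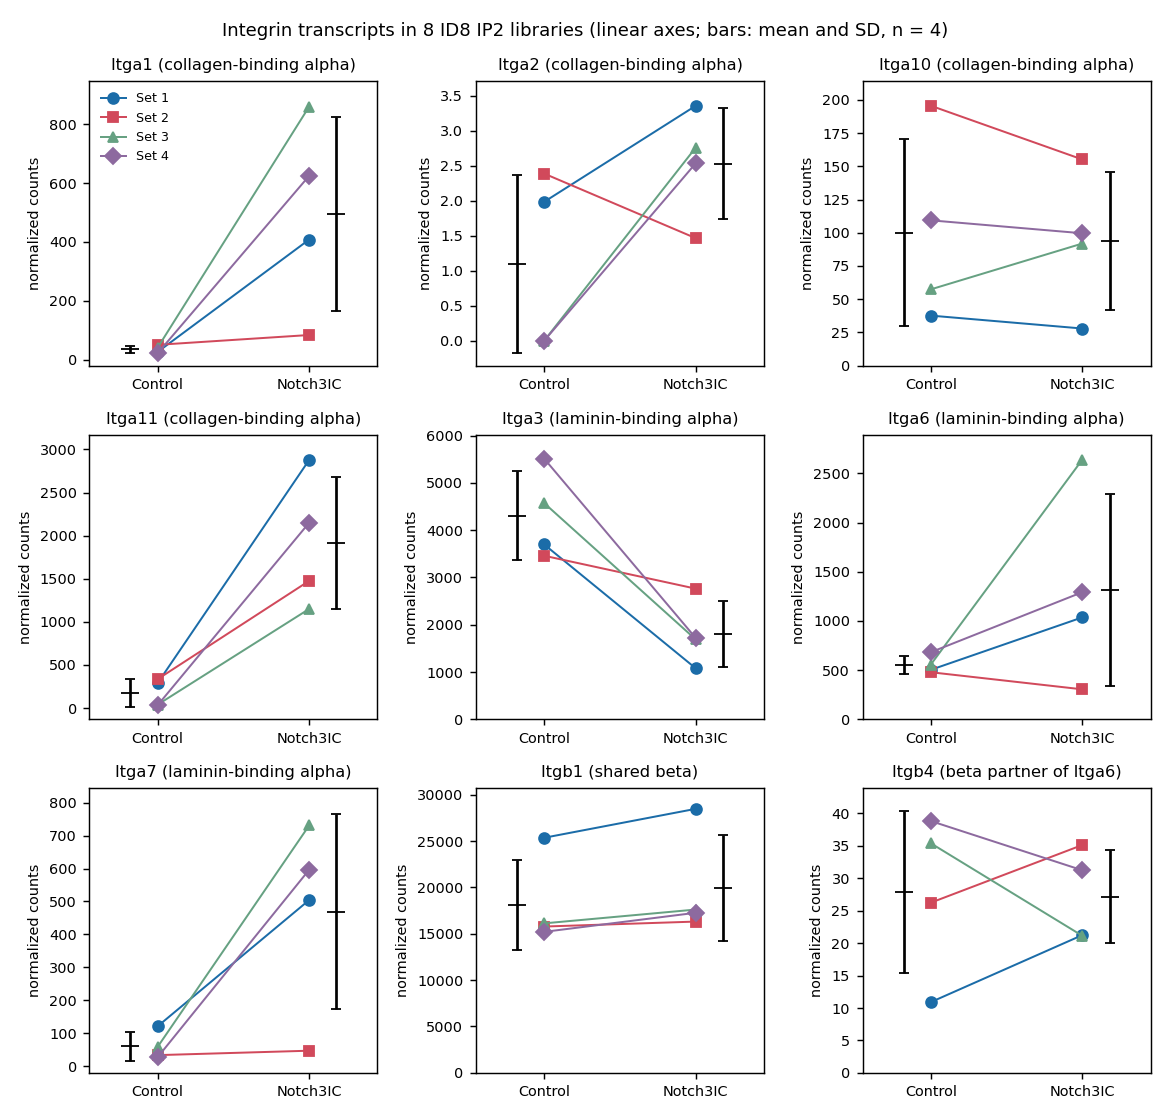
Normalized counts (linear axes) of the 9 integrin chains in the Control and Notch3IC library of each set, joined by a line within a set, with black bars for the mean and SD of 4 libraries. All lines rise for Itga1, Itga11 and Itga7 and all fall for Itga3, while Itgb1 stays near its level within each set and is highest in Set 1.

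Among the collagen-binding chains, Itga1, the alpha chain of a receptor for collagen IV and fibrillar collagens, had 25.8, 50.1, 40.2 and 21.4 normalized counts in Control (Sets 1 to 4 in this order, here and below). Its Notch3IC libraries held 408, 83.4, 860 and 625. The groups did not overlap, although the Set 2 Notch3IC library was close to the Control range. The log2 fold change was 3.86 (SE 0.62, edgeR adjusted p = 0.0266), and the ratios within Sets 1 to 4 were 3.96, 0.73, 4.40 and 4.84 on the log2 scale, so that Itga1 was higher in 4 of 4 sets. Without both Set 2 libraries the fitted value was 4.44 (adjusted p = 0.00375) and without both Set 1 libraries 3.84 (adjusted p = 0.0799). Without both libraries of Set 3 or of Set 4 it was 3.54 and 3.55 and was not called (adjusted p = 0.246 and 0.309). The call was lost without the Control library of Set 3 (adjusted p = 0.104) or of Set 4 (adjusted p = 0.112), where the log2 fold change was 3.95 and 3.68. Itga1 lies on chromosome 13 at 114953096 to 115101964 (GENCODE, GRCm38), and 3.68% of its exon bases overlap Gm49395 on the same strand.

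Itga11, a receptor chain for fibrillar collagen I best known from fibroblasts, had 289, 335, 39.2 and 32.5 normalized counts in Control. In Notch3IC it had 2878, 1476, 1150 and 2150. The groups were well separated, and the Control libraries themselves fell into a higher pair (Sets 1 and 2) and a lower pair (Sets 3 and 4). The log2 fold change was 3.47 (SE 0.71, adjusted p = 0.0497), with ratios of 3.31, 2.14, 4.86 and 6.03 within Sets 1 to 4. With the set as a block the value was 3.87 (SE 0.59, adjusted p = 0.0297). Without Set 1 it was 3.60 (adjusted p = 0.0946) and without Set 2 it was 4.11 (adjusted p = 0.0493). Leaving out 1 library of Set 3 or Set 4 gave 3.14 and 3.11 (Control, adjusted p = 0.126 and 0.125) and 3.65 and 3.41 (Notch3IC, adjusted p = 0.106 and 0.144), which were not called. The gene lies on chromosome 9 at 62677826 to 62783982 and shares no exon bases with another annotated gene.

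The other collagen-binding chains showed no such change. Itga10, a collagen receptor chain typical of cartilage, had 37.7, 196, 57.4 and 109 normalized counts in Control and 27.9, 155, 91.9 and 99.6 in Notch3IC. The spread followed the sets more than the groups, with Set 1 lowest and Set 2 highest in both. Its log2 fold change was -0.10 (SE 0.60, adjusted p = 0.961), higher in 1 of 4 sets, and its sign turned without the Control library of Set 2 (0.45) or the Notch3IC library of Set 1 (0.21), and without both libraries of Set 2 (0.10). For this gene 33.5% of exon bases overlap Gm42957 on the same strand (chromosome 3, 96645584 to 96664519), so its counts are uncertain. Itga2, the main collagen receptor chain of platelets and many epithelia, had 2, 2, 0 and 0 counts in Control and 3, 1, 3 and 3 in Notch3IC. These are at or below a floor of 3 counts a library, and a difference in Itga2 (chromosome 13, 114833081 to 114932100) was not detectable at this depth.

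The laminin-binding chains went in different directions. Itga3, the alpha chain of a laminin receptor that anchors many epithelia, was the most abundant of the 7 alpha chains in Control, with 3698, 3460, 4573 and 5514 normalized counts. The Notch3IC libraries held 1078, 2764, 1688 and 1720. No Notch3IC library reached the lowest Control library, and the Set 2 Notch3IC library again lay nearest to Control. The log2 fold change was -1.25 (SE 0.27, adjusted p = 0.0488), with ratios of -1.78, -0.32, -1.44 and -1.68 within Sets 1 to 4. Itga3 was lower in 4 of 4 sets. Without Set 2 the value was -1.62 (adjusted p = 0.0130) and without Set 1 it was -1.15 (adjusted p = 0.0778). Without a single library of Set 3 or Set 4 the log2 fold change was -1.22 and -1.11 (Control) and -1.22 and -1.23 (Notch3IC), while the adjusted p-values of 0.143, 0.153, 0.142 and 0.161 were above 0.1. Itga3 lies on chromosome 11 at 95044474 to 95076801.

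Itga7, a laminin receptor chain best known from skeletal and cardiac muscle, had 121, 33.4, 58.4 and 26.9 normalized counts in Control and 504, 46.8, 731 and 596 in Notch3IC. It was higher in 4 of 4 sets, with log2 ratios of 2.06, 0.48, 3.64 and 4.45, but the groups overlapped because the Set 2 Notch3IC library stayed within the Control range. The log2 fold change was 2.97 (SE 0.75, adjusted p = 0.0837), the weakest of the 4 calls. It was 3.16 (adjusted p = 0.0188) without Set 2 and 3.54 (adjusted p = 0.105, no longer called) without Set 1. The call was also lost when the Control library of Set 2, 3 or 4 was dropped, with log2 fold changes of 2.78, 2.96 and 2.72 (adjusted p = 0.160, 0.218 and 0.237). Dropping the Notch3IC library of Set 1, 3 or 4 gave 2.96, 2.68 and 2.84 (adjusted p = 0.133, 0.207 and 0.218), so the fitted change stayed close to 2.97 while the adjusted p rose above 0.1. The muscle regulators Myod1 and Myog were listed at 0 in all 8 libraries. Itga7 lies on chromosome 10 at 128933818 to 128958282, where 0.111% of its exon bases overlap Mettl7b on the opposite strand.

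Itga6 pairs with Itgb1 or, in hemidesmosomes, with Itgb4. Control libraries held 503, 478, 556 and 682 normalized counts and Notch3IC libraries 1036, 305, 2640 and 1293. In Sets 1, 3 and 4 the Notch3IC library lay above all Control libraries, and in Set 2 it lay below all of them. The log2 fold change of 1.25 (SE 0.51, adjusted p = 0.247) did not pass the test. It did so without the Notch3IC library of Set 2, at 1.58 (adjusted p = 0.0196), and without both Set 2 libraries, at 1.51 (adjusted p = 0.0605). The value also rested on Set 3, as it was 0.67 without the Notch3IC library of that set (adjusted p = 0.575) and 0.67 without both of its libraries (adjusted p = 0.803). The order of the sets by their Itga6 ratio (2.25 in Set 3, 1.04 in Set 1, 0.92 in Set 4 and -0.65 in Set 2) puts the set with the least Notch3 last, as for Itga1, Itga11 and Itga7. The part of the Notch3 level in these differences between sets was not tested. Itga6 lies on chromosome 2 at 71745616 to 71858416.

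The beta chains differed little between the groups. Itgb1 had 25350, 15777, 16121 and 15204 normalized counts in Control and 28470, 16313, 17610 and 17261 in Notch3IC. Both Set 1 libraries stood well above the rest, and the other 6 libraries lay close together. The log2 fold change was 0.14 (SE 0.24, adjusted p = 0.821), and with the set as a block it was 0.13 (SE 0.06, adjusted p = 0.161). Within sets the log2 ratios were 0.17, 0.05, 0.13 and 0.18, higher in 4 of 4 sets, and the value was 0.12 (SE 0.07) without Set 1 and 0.16 (SE 0.29) without Set 2. It turned to -0.08 without the Notch3IC library of Set 1 alone. Itgb4, the hemidesmosomal beta chain, had only 10.9, 26.2, 35.4 and 38.8 normalized counts in Control and 21.2, 35.1, 21.1 and 31.2 in Notch3IC. The groups overlapped throughout, its log2 fold change was -0.05 (SE 0.40, adjusted p = 0.972), and the sign turned to positive without the Control library of Set 3 or 4 or the Notch3IC library of Set 1 or 3. Itgb1 lies on chromosome 8 at 128685654 to 128733200 and Itgb4 on chromosome 11 at 115974709 to 116008412, where 7.66% of its exon bases overlap B230344G16Rik on the opposite strand.

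**Figure D2:**
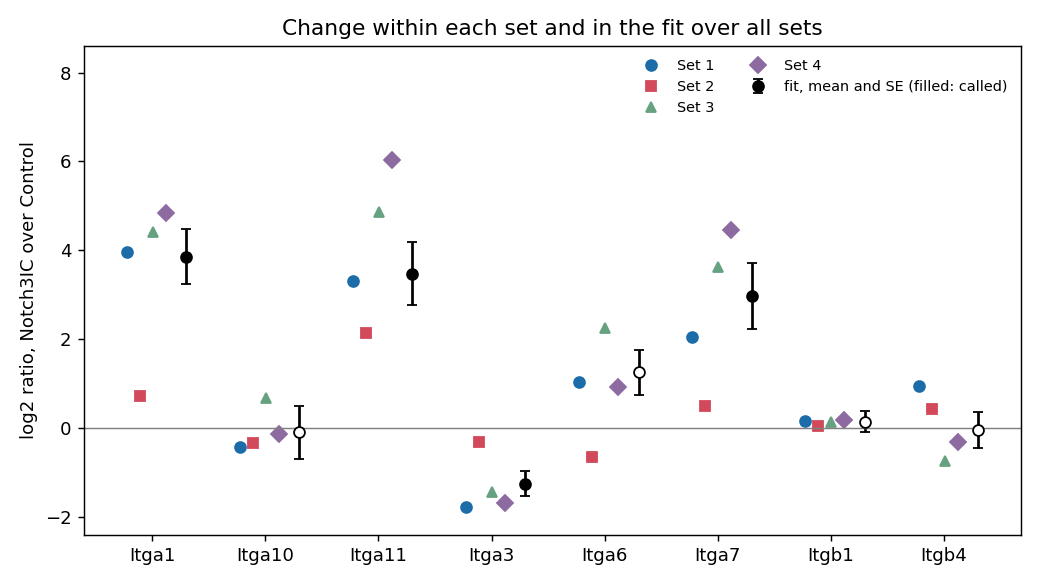
Log2 ratio of Notch3IC over Control for the 8 integrin chains tested, as 1 point a set and as the fitted log2 fold change with its SE (black circles, filled where called). Set 2 has the smallest change for Itga1, Itga11, Itga3 and Itga7 and is the only set with a negative ratio for Itga6, and the 4 Itgb1 points lie between 0.05 and 0.18.

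Calls across the whole table depended on which libraries were kept. Without both libraries of Set 3 the fit called 1 gene higher and 0 lower of 12418 tested, and without both of Set 4 it called 0 and 0 of 12378, so that no member was called in either. The log2 fold changes of Itga11, Itga7 and Itga3 were 3.32, 2.67 and -1.19 without Set 3 (adjusted p = 0.246, 0.467 and 0.343). Without Set 4 they were 3.06, 2.59 and -1.08 (adjusted p = 0.332, 0.548 and 0.430). Without 1 library of Set 3 or Set 4, calls over all genes fell to 75 higher and 8 lower (Control Set 3), 99 and 11 (Control Set 4), 201 and 29 (Notch3IC Set 3) and 155 and 16 (Notch3IC Set 4), against 423 and 92 with all libraries. Treating the set as a block did not change the call of any member. In that fit 5.19% of genes were called higher and 2.53% lower, and the members called were again Itga1, Itga11 and Itga7 (higher) and Itga3 (lower). The groups of 4 libraries did not overlap for Itga1 and Itga11 (Notch3IC higher) and Itga3 (Notch3IC lower), where 7.06% of genes tested had all Notch3IC libraries above Control and 3.77% had all of them below.

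Since the alpha chains share Itgb1, each was also fitted as a ratio to the Itgb1 count of its library. Of 12429 genes, 2.15% were called higher and 0.29% lower on this scale, and the median log2 change of all genes was -0.14, close to the Itgb1 difference with its sign turned. Itga1 rose 3.71 (SE 0.63, adjusted p = 0.0240), Itga11 rose 3.36 (SE 0.65, adjusted p = 0.0571) and Itga7 rose 2.97 (SE 0.65, adjusted p = 0.0720) on the log2 scale relative to Itgb1. Without both Set 1 libraries the values were 3.70, 3.49 and 3.40 (adjusted p = 0.0724, 0.0927 and 0.0993), and without both Set 2 libraries 4.35, 4.17 and 3.20 (adjusted p = 0.00880, 0.0210 and 0.0171). With all 8 libraries these 3 members kept their calls, and no member was called lower relative to Itgb1, against 1 (Itga3) with the set as a block and 1 with DESeq2 on the same scale. The unadjusted p was under 0.05 for Itga1, Itga11, Itga3 and Itga7. In this fit Itga1 lost its call without the Control library of Set 4 (adjusted p = 0.107), and Itga11 lost it without either Set 1 library (0.168 for Control, 0.132 for Notch3IC) or with Notch3IC of Set 3 (0.130) or of Set 4 (0.195) dropped. Itga7 lost it without any single library except Notch3IC of Set 2, at adjusted p-values of 0.132 to 0.230. With both libraries of Set 3 removed, 76 of 12417 genes were called higher and 1 lower relative to Itgb1, and with those of Set 4 removed 25 and 0 of 12377, against 267 and 36 with all libraries. No member was among them, at log2 changes of 3.33 and 3.37 for Itga1, 3.19 and 2.87 for Itga11 and 2.66 and 2.56 for Itga7.

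The ratio of Itga3 to Itgb1 had a log2 fold change of -1.33 (SE 0.41, adjusted p = 0.213) and was not called. With the set as a block, a fit in which 4.63% of genes were called higher and 3.35% lower, it was -1.45 (SE 0.27, adjusted p = 0.0294) and was called. It was also called without the Notch3IC library of Set 2, at -1.70 (adjusted p = 0.0575), without both Set 1 libraries, at -1.25 (adjusted p = 0.0723), and without both Set 2 libraries, at -1.76 (adjusted p = 0.0999). Per kilobase the Itga3 level was 11.5%, 17.2%, 22.3% and 28.5% of Itgb1 in Control and 2.97%, 13.3%, 7.52% and 7.82% in Notch3IC. The groups overlapped on this scale, since the high Itgb1 of Set 1 lowered its Control value below the Set 2 Notch3IC value, but within every set the ratio was lower in Notch3IC. The remaining ratios to Itgb1 were not called, at 1.11 (SE 0.55) for Itga6, -0.20 (SE 0.70) for Itga10 and -0.22 (SE 0.55) for Itgb4.

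Levels can be compared between chains after division by transcript length (normalized counts per kilobase of the longest protein-coding transcript). In Control, Itgb1 led with 4748 ± 1269, followed by Itga3 with 887 ± 192 and Itga6 with 129 ± 21.0, and the ranges of these 3 did not overlap. Below them Itga11 (35.0 ± 32.3), Itga10 (19.8 ± 14.0) and Itga7 (14.9 ± 10.7) had overlapping ranges. Itgb4 (4.49 ± 2.01) and Itga1 (3.13 ± 1.20) overlapped each other as well, and Itga2 was last at 0.154 on average.

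In Notch3IC the order of the alpha chains was less distinct. Itgb1 had 5220 ± 1502 normalized counts per kilobase. Itga11 (385 ± 154), Itga3 (373 ± 144) and Itga6 (306 ± 226) followed with overlapping ranges, so that Itga3 no longer stood alone. Itga7 came next with 117 ± 73.8, ahead of Itga1 (45.1 ± 30.1), Itga10 (18.6 ± 10.3) and Itgb4 (4.38 ± 1.14), each of which overlapped its neighbor in this order.

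The make-up of the alpha-chain pool follows from the same values. Of the summed per-kilobase level of the 7 alpha chains, Itga3 made up 78.0%, 75.5%, 85.0% and 85.3% in Control and 18.3%, 57.6%, 23.6% and 27.0% in Notch3IC. Itga3 was thus the main alpha transcript in every Control library and, among the Notch3IC libraries, exceeded the other 6 chains together in Set 2 alone. The share of Itga11 was 5.97%, 7.16%, 0.713% and 0.492% in Control and 47.9%, 30.1%, 15.7% and 33.0% in Notch3IC.

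The 4 collagen-binding chains together held 5.79% ± 4.61 of the pool in Control and 36.7% ± 12.0 in Notch3IC (SD, n = 4), and these groups did not overlap. Itga11 was the largest part of that share in all 4 Notch3IC libraries and in Control of Sets 1 and 2. In Control of Sets 3 and 4 Itga10 was larger, at 1.03% and 1.63% of the pool, and Itga1 accounted for 0.301% ± 0.144 in Control and 3.38% ± 1.97 in Notch3IC. Itga6 held between 11.6% and 11.9% in each Control library and 19.9%, 7.16%, 41.7% and 22.9% in Notch3IC, and Itga7 went from 1.44% ± 1.14 to 8.80% ± 5.15. The laminin-binding chains still made up the larger part in 3 of 4 Notch3IC libraries, the exception being Set 1 at 48.6%.

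The size of the pool changed far less than its make-up. The 7 alpha chains summed to 14.7%, 22.8%, 26.2% and 33.4% of the Itgb1 level per kilobase in Control and to 16.2%, 23.1%, 31.8% and 29.0% in Notch3IC. The means of 24.3% ± 7.75 and 25.0% ± 6.92 differed by less than the spread between libraries.

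**Figure D3:**
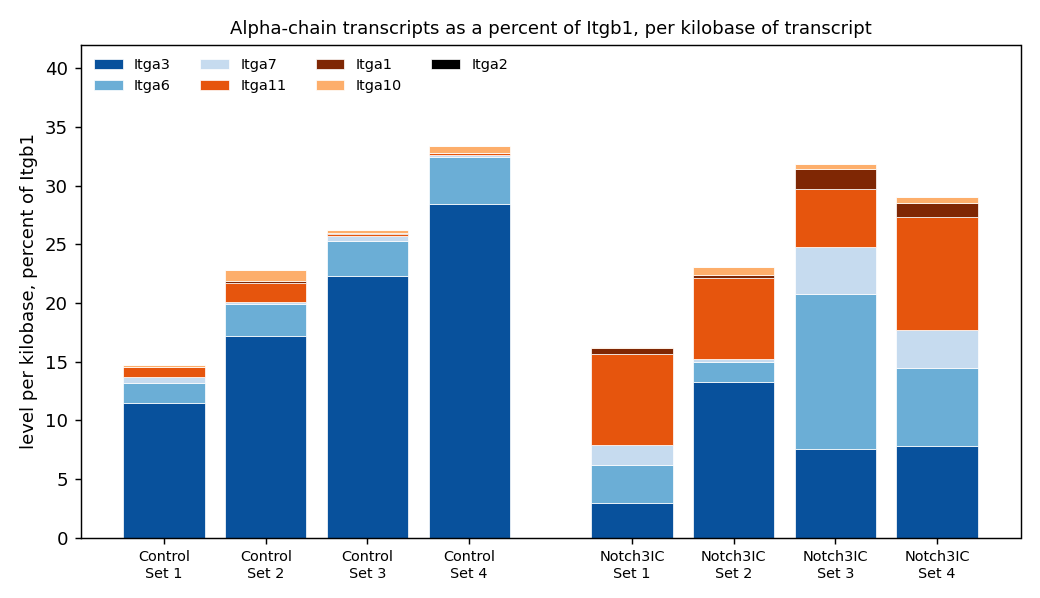
Per-kilobase level of each of the 7 collagen- and laminin-binding alpha chains as a percent of Itgb1 in each library, stacked (laminin-binding chains in blues, collagen-binding chains in oranges and dark brown). Itga3 fills most of each Control bar, and Itga11, Itga6 and Itga7 fill most of the Notch3IC bars of Sets 1, 3 and 4, with summed heights of 14.7% to 33.4% in Control and 16.2% to 31.8% in Notch3IC.

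Itgb1 has further alpha partners that bind fibronectin, vitronectin or vascular ligands. Of 5 such chains on the list, 4 were tested and 1 was called. Itga9, a receptor chain for tenascin and other matrix proteins, went from 10.8 ± 7.0 normalized counts in Control to 1091 ± 689 (log2 fold change 6.70, SE 0.69, adjusted p = 0.0151), a larger fitted change than that of any member, with no test of that difference. Itgav, a vitronectin receptor chain, was the most abundant of them at 8681 ± 790 and 10186 ± 772, and Itga5, the fibronectin receptor chain, had 4374 ± 1440 and 6591 ± 2550 (adjusted p = 0.344). Itga5 was higher in 4 of 4 sets. With the set as a block its log2 fold change was 0.57 (adjusted p = 0.0482), too small for a call. Per kilobase it was 20.8% ± 1.74 of Itgb1 in Control and 28.3% ± 4.10 in Notch3IC, without overlap. With the 5 chains added, the 12 alpha chains summed to 72.1% ± 11.0 of Itgb1 per kilobase in Control and 85.3% ± 12.9 in Notch3IC, higher in 4 of 4 sets but with overlapping groups. Itgav was on average the largest part of that sum, at 27.0% of Itgb1 in Control and 28.7% in Notch3IC. It also pairs with other beta chains, such as Itgb3 and Itgb5, so the sum does not measure how much Itgb1 is paired.

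The ligands of the collagen-binding chains were next. Of 14 collagen chains on the list 12 were tested, 2 were called higher and none lower, with a median log2 fold change of 1.17 against -0.01 over all genes. Col3a1, a fibrillar collagen, had a log2 fold change of 1.30 (SE 0.34, adjusted p = 0.0818), and Col6a3, a chain of the microfibrillar collagen VI, had 4.03 (SE 1.00, adjusted p = 0.0964). DESeq2 called 8 of the 12 higher, and 707 of 17359 genes in all. With the set as a block 9 were called higher, which added Col1a1, Col1a2, Col4a1, Col4a2, Col5a1, Col6a1 and Col6a2. In the block fit 5.19% of all genes tested were called higher. The 2 chains with negative log2 fold changes, Col4a5 (-0.44) and Col4a6 (-0.67), were lower in Notch3IC in every set. With the block they had -0.45 and -0.71 (adjusted p = 0.0275 and 0.0263), short of the size needed for a call. Col1a1, the most abundant, went from 88053 ± 37808 to 177010 ± 62784 normalized counts (log2 fold change 1.01, adjusted p = 0.166). Its value with the block was 1.04 (adjusted p = 0.0386).

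Laminin chains did not move together. Of 11 on the list 8 were tested, 1 was called higher and none lower, with a median log2 fold change of -0.01. Lama4, a laminin alpha chain of vessel and fat basement membranes, was called at 1.52 (SE 0.36, adjusted p = 0.0606). Its log2 ratio was negative in Set 2 (-0.12), and the groups overlapped. Lamc1, the common gamma chain and the most abundant, had 10764 ± 783 and 10595 ± 1127 normalized counts. Lama5, an alpha chain of the laminins that Itga3 receptors bind, went from 3138 ± 1648 to 1276 ± 707 normalized counts (log2 fold change -1.30, SE 0.50, adjusted p = 0.215), and it was called lower with the set as a block (adjusted p = 0.00874). In that fit Lama1 was called higher (1.92, adjusted p = 0.0293) in addition to Lama4. DESeq2 called the same 3 genes.

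Other receptors for the same ligands had few calls. None of the 3 tested of 5 collagen receptors outside the integrins was called, and Ddr1, a collagen-activated kinase and the most abundant of them, had a log2 fold change of -0.27 (SE 0.15). Ddr1 was lower in Notch3IC in every set. With the set as a block it had -0.27 (adjusted p = 0.0463), short of the size needed for a call, while Ddr2 had 0.14 (adjusted p = 0.258). Mrc2, which takes up collagen for breakdown, had 1.00 (adjusted p = 0.114) and was called higher with the set as a block (1.06, adjusted p = 0.0625). DESeq2 called none of these, and Mrc2 was the 1 gene at an unadjusted p under 0.05 by edgeR without the block. Its DESeq2 log2 fold change was 0.983 (adjusted p = 0.0198), just short of the limit of 1. All Notch3IC libraries lay above Control for Mrc2, as for 7.06% of genes tested. Of 3 laminin receptors outside the integrins none was called by edgeR without the block. Bcam, which binds laminins that hold Lama5, had -1.46 (SE 0.57, adjusted p = 0.221) and was called lower with the block (-1.39, adjusted p = 0.0200), and lower by DESeq2, while Dag1, dystroglycan, had -0.10 (SE 0.20).

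Inside the cell, none of the 8 tested of 9 genes whose products bind the Itgb1 tail was called. Flna, the most abundant, had a log2 fold change of 0.17 (SE 0.22), and Tln2, a talin, had 1.57 (SE 0.53, adjusted p = 0.163) and was called higher with the set as a block (1.33, adjusted p = 0.0344) and by DESeq2. Without the block, unadjusted edgeR p-values were under 0.05 for 3 of them, Tln2, Fermt2 and Ilk. For Ilk 89.7% of exon bases overlap Rrp8 and Taf10 on the opposite strand. Its counts are uncertain, since the strandedness of the libraries is not given. The 5 tetraspanins that bind laminin-binding integrins included no call by edgeR or DESeq2 (1 at an unadjusted p under 0.05, Cd9), and Cd151, the partner of Itga3 and Itga6, had 6584 ± 464 normalized counts in Control and 6493 ± 466 in Notch3IC. Of the 3 hemidesmosome partners of Itgb4, 2 were tested, Plec and Dst. Neither was called by edgeR or DESeq2. Without the block, both had edgeR p-values above 0.05 before adjustment. Plec, the most abundant, was nevertheless lower in Notch3IC in every set. With the set as a block its log2 fold change was -0.54 (adjusted p = 0.0424), short of the size needed for a call. Dst had -0.06 in that fit (adjusted p = 0.657).

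**Figure D4:**
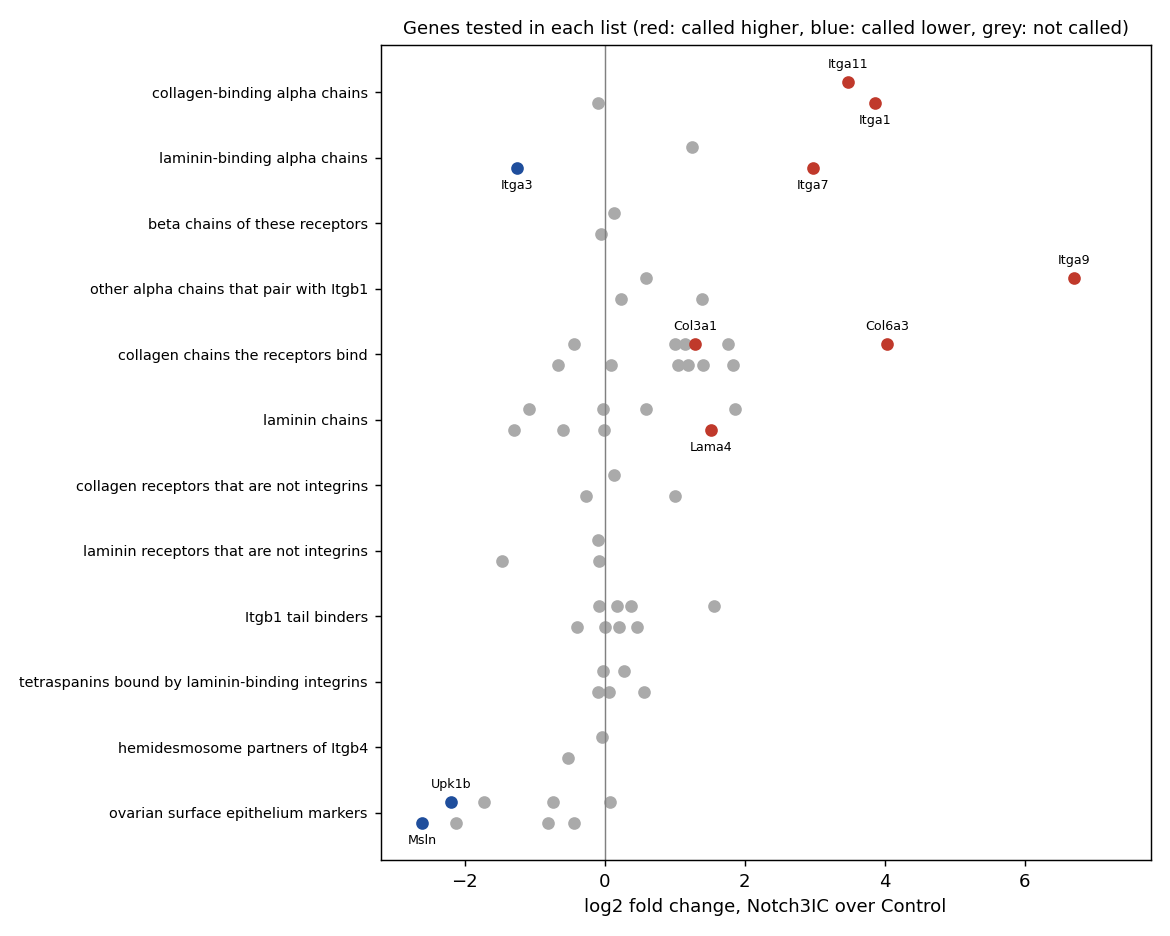
Log2 fold change of Notch3IC over Control for every gene tested in 12 lists, with called genes named and colored (red higher, blue lower). The collagen chains lie mostly to the right of 0 and the laminin chains on both sides. The tail binders lie between -0.40 and 0.47, apart from Tln2 at 1.57, and the tetraspanins between -0.10 and 0.56.

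Markers of cell types moved alongside these changes. Among 9 markers of ovarian surface epithelium 8 were tested, 2 were called lower and none higher, with a median log2 fold change of -1.26. Msln, mesothelin, fell by 2.60 (SE 0.59, adjusted p = 0.0625) and Upk1b, a uroplakin, fell by 2.19 (SE 0.54, adjusted p = 0.0762) on the log2 scale. With the block 4 were called lower, which added Krt19 and Upk3b, the most abundant, where 2.53% of all genes tested were called lower. DESeq2 called these 4 and Krt7 lower, and 192 of 17359 genes in all. Krt7, which did not pass the filter of the edgeR fit, had 5, 2, 46 and 7 counts in Control. In Notch3IC it had 1, 1, 2 and 2, below the floor of 3 counts, so its DESeq2 call has little weight. The summed normalized counts of the 9 markers came to 31485, 47654, 73962 and 70695 in the Control lines and 15137, 31577, 29941 and 24501 in the Notch3IC lines. Transcripts that mark the labelled cell type were thus found in every library, and their sum was lower in Notch3IC within each set. Not all markers followed it, as Cdh2 had a log2 fold change of 0.08 (SE 0.20). The fall of Itga3 went with this one, and their relation was not tested.

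Of 4 smooth muscle markers 2 were tested and none was called. Both, Acta2 and Cnn1, were called higher with the block, as were 5.19% of all genes tested. The summed normalized counts of the 4 markers, nearly all Acta2, came to 33569, 11076, 7024 and 2858 in the Control lines. In Notch3IC they came to 74010, 17190, 22626 and 14514. Control libraries of Sets 3 and 4 were lowest here, as for Itga11. Whether this signal has a part in the Itga11 and Itga7 differences was not tested. In bulk RNA, more cells with a transcript and more transcript in each cell cannot be told apart.

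Other cell types left little signal. Of 6 leukocyte markers 2 were tested and Csf1r was called higher (8.67 ± 2.38 to 24.7 ± 11.0 normalized counts, adjusted p = 0.0719). Cd68 was the most abundant of them, Cd3e was at 0 and Ptprc had 2 counts in 1 Notch3IC library and 0 elsewhere, and the summed values were 56.5 to 127 in Control and 77.6 to 111 in Notch3IC. Of 4 endothelial markers 2 were tested and none was called, with sums of 11.9 to 38.2 and 28.5 to 49.2 and Pecam1 the most abundant. None of the 4 skeletal muscle markers passed the filter.

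Genes whose pattern over the 8 libraries was most like each member were found by Pearson's r of log2-scaled library counts, given here as a description of libraries that share their group and set. The nearest to Itga1 was Adamts4, a protease of cartilage proteoglycans (r = 0.997), and the nearest to Itga11 was Dlx5, a homeobox gene of skeletal development (r = 0.988). Itga3 was closest to Magoh (r = 0.991), with Msln (r = 0.988) next. Itga7 was closest to Mppe1 (r = 0.992), Itga6 to Endou (r = 0.986) and Itgb1 to Msn, moesin, which links membrane proteins to actin (r = 0.994). For Itga10 and Itgb4, whose libraries differed by set more than by group or had few counts, the nearest were Pycard (r = 0.985) and 4930581F22Rik (r = 0.988).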

How the data were processed

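Poly-A selected libraries were made from total RNA of 8 ID8 IP2 lines, and the authors deposited raw read counts per gene symbol for each library. The submitters' processing notes name TopHat, Cufflinks, DESeq and the mm9 build; versions and strandedness are not given in the sources used here. Positions are those of GENCODE on GRCm38 and were not converted. Counts were analysed in R 4.3.3 with edgeR 4.0.16 (filterByExpr, TMM factors 0.908 to 1.04, robust quasi-likelihood fit on the group, all 8 libraries), which left 12430 of 23284 symbols. Common biological variation was 26.3%, or 14.1% with the set as a block. Sets paired the libraries by label, and same-set deviations correlated at r = 0.398 to 0.804. Between sets r ran from -0.501 to 0.372, the highest being Control of Set 3 with Notch3IC of Set 4. The same-set values of Set 2 (0.398) and Set 4 (0.409) were little above that. A second fit used the log of the Itgb1 count as offset. Alternatives were DESeq2 1.42.0 (also scaled to Itgb1), RLE normalization, library totals, a minimum of 10 counts, no filter, the block, each library or set left out (sets also under the block) and other lengths for shares. On simulated data the first fit recovered 39.1%, 90.4% and 96.4% of 197 genes changed by 1, 2 and 3 on the log2 scale. It made 7, 8 and 9 false calls in turn. The simulated counts had no set effect and an equal change in all Notch3IC libraries, so recovery in the real libraries can differ. Genes named are the 9 members, the genes of fixed lists and the nearest patterns. The members and lists were chosen with earlier results of these data known. Ratios within a set used a pseudocount of 0.5.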

Additional observations from a re-analysis of the deposited data

Results flagged for a closer look

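Normalized Itgb1 counts of the Set 1 libraries lay far from the other libraries of their group. The Control library of Set 1 had 25350, against 15204 to 16121 in the other 3 Control libraries, a gap of 0.91 of the group's range. The Notch3IC library of Set 1 had 28470, against 16313 to 17610 in the others, a gap of 0.893 of the range. Both exceed Dixon's 95% critical value for 4 libraries, and both belong to the same set. Among 32 groups of 4 values searched 2 were marked in this way, where chance marks about 1 in 20, or 1.6.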

How the results depend on the processing

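With 4 libraries a group, calls rested on few libraries, for the members and over all genes. Itga1, Itga11, Itga7 and Itga3 kept their direction under all 22 alternatives and their calls under RLE normalization, library totals, a minimum of 10 counts, no filter, DESeq2 and the replicate block. Over 22 alternatives the log2 fold change ran from 3.19 to 4.44 for Itga1, from 3.06 to 4.47 for Itga11, from 2.27 to 3.57 for Itga7, from -1.63 to -1.07 for Itga3 and from 0.48 to 1.58 for Itga6. Of the members with no call, Itga6 kept its sign, and Itga10, Itgb1 and Itgb4 changed theirs when libraries were left out, over ranges of -0.44 to 0.45, -0.079 to 0.34 and -0.31 to 0.19 (0.27 for Itgb4 without Set 3 under the block), and relative to Itgb1 over -0.62 to 0.39 for Itga10 and -0.56 to 0.048 for Itgb4. Members called higher numbered 0 to 4 and members called lower 0 to 1 when a library or set was left out, and relative to Itgb1 0 to 3 and 0 to 1. With the replicate block and Set 1, 3 or 4 left out, a choice made after seeing the data, no member was called, where 46, 59 and 129 of all genes were called higher and 23, 22 and 30 lower, while the block without Set 2 called 4 members higher and 1 lower, where 904 of all genes were called higher and 426 lower. Across all genes 423 were called higher and 92 lower, against 707 and 192 by DESeq2, 645 and 315 with the replicate block, 0 to 702 and 0 to 305 with libraries left out, and up to 904 and 426 where Set 2 was left out under the block. The count of 0 higher and 0 lower came from the fit without both Set 4 libraries. Relative to Itgb1 the counts were 267 higher and 36 lower, against 155 higher with at least 10 counts in every library, 575 and 416 with the replicate block, 509 and 139 by DESeq2 scaled to Itgb1 (added after seeing the data), and 25 to 408 and 0 to 213 with libraries left out. The replicate block and DESeq2 scaled to Itgb1 each called 1 member lower relative to Itgb1, Itga3, where the fit without the block called 0. The replicate block changed no other call of a member. Shares of the alpha-chain pool depend on the length used, with 6.78% and 44.3% for the collagen-binding chains on exon unions and 6.38% and 41.3% on counts not divided by length. Single chains moved more. The mean Itga1 share in Control and Notch3IC was 0.685% and 7.56% on undivided counts, against 0.301% and 3.38%. For Itga6 it was 6.99% and 15.2% on exon unions, against 11.8% and 22.9%. The cause of the changed calls was not tested.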
